A study of Mus musculus with 13 samples.

Results

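The genes of 3 chains of class II antigen presentation, H2-Aa, H2-Ab1 and H2-Eb1, and of their chaperone Cd74 were followed over the day in mouse aorta. They were taken by name, and the platform annotation gave each of them 1 probe set, so that 4 probe sets describe 4 of the 8251 genes with a probe set of their own. These 4 genes were selected with earlier results of the same arrays in view, above all the 24-h pattern of Cd74. Their 24-h values are therefore given as a description, and the counts from the 24-h fit support nothing here.

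The tissue was whole aorta of C57BL/6 mice, an inbred strain, which had lived for 2 weeks under a light and dark schedule of 12 h each before 36 h without any light. Collection then ran for 48 h at steps of 4 h, and the aortae of 6 animals made up 1 pool. The 12 pools are called CT18 to CT62 after their circadian time (CT). All pools shared strain, housing and darkness, so that time was the only factor and no untreated or mutant group was present. The labels speak of duplicate arrays. Of the 13 arrays used here, 2 came from CT18 and were averaged as 1 pool, and the labels do not say whether they came from separate RNA. CT18 to CT38 are called the first day and CT42 to CT62 the second, so that each circadian time was met by 1 pool on each day.

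Class II molecules are pairs of an alpha and a beta chain that carry peptides from endosomes to the cell surface, where CD4+ T cells read them. The chains are made mainly by B cells, dendritic cells, thymic epithelium and activated macrophages. In an artery their makers would be resident immune cells and cells of adjoining fat and lymphoid tissue more than smooth muscle. Their source in these pools was not measured. Transcription of the chains and of Cd74 depends on the coactivator Ciita, which joins factors already bound to the X and Y boxes of their promoters, and interferon gamma raises Ciita in many cell types.

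H2-Aa (chr17:34282744-34287823) encodes the alpha chain of the I-A molecule and H2-Ab1 (chr17:34263227-34269418) its beta chain. H2-Eb1 (chr17:34305867-34316674) encodes the beta chain of I-E, and all 3 genes lie together in the major histocompatibility complex. Cd74, on another chromosome, encodes the invariant chain, which assembles with new class II molecules, blocks their groove and directs them to endosomes. Positions are those of RefSeq on mouse assembly GRCm38.p6.

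RefSeq promoter windows were at hand for 2 of the 4 genes, H2-Aa and H2-Eb1. They are shown because the genes had related profiles over the pools and because class II promoters are known for a shared set of boxes. Each line gives the 130 bases before the annotated start, 5′ to 3′ on the gene's own strand, with matches to ATTGG (the Y box, CCAAT on the other strand), ACNGNTG (a core of the X box) and TGACGTCA in capitals. The stretches are chr17:34287824-34287953 on the minus strand for H2-Aa and chr17:34305737-34305866 on the plus strand for H2-Eb1.
H2-Aa: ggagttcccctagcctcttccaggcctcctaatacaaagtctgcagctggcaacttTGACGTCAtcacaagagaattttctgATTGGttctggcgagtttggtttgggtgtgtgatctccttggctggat
H2-Eb1: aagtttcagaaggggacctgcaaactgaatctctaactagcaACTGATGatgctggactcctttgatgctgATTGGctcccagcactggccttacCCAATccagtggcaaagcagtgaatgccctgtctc

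In H2-Eb1 the X core stood at bases -88 to -82 and was followed by ATTGG at -59 to -55, with another Y box on the opposite strand at -35 to -31. In H2-Aa a single ATTGG lay at -48 to -44, and TGACGTCA lay upstream of it at -74 to -67. The only match to ACNGNTG in the H2-Aa window, at -232 to -226 on the minus strand, is outside the printed stretch. An X box that differs from ACNGNTG would be missed, so none is shown to be absent from H2-Aa. Both strands were searched in windows of 300 bases, 250 before and 50 after the start. Of 32851 such windows, 37.4% held ATTGG, 38% held ACNGNTG and 1.79% held TGACGTCA, which was added to the search after the sequences had been seen. An X core followed by ATTGG on the same strand after 15 to 40 bases was found in 0.837% of windows, H2-Eb1 among them and H2-Aa not. Neither of these clock-related motifs occurred in either window: CACGTG, the E box of Clock and Bmal1 (7.15% of windows), and TTANGTAA, the D box (2.32%). These matches are letters in a window, and none was tested as a binding site.

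Values are the deposited intensities, on a linear scale in the authors' units. Different probe sets bind RNA with different strength, so levels are compared between pools for 1 gene and not between genes. Intensities below 36.7, the 20th percentile of positive values, were raised to this floor, and probe sets with a mean log2 of at least 5.60 were kept. All 4 genes passed, and none was at the floor in any of the 12 pools. Array medians lay between 70.4 and 87.6. The 3′ to 5′ ratio lay between 1.05 and 1.31 for the Gapdh control and was higher, between 1.64 and 2.21, for the actin control. With 12 pools and 1 array for nearly all of them, array number limits precision throughout.

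Cd74 (chr18:60803849-60812652) measured 1281 at CT18, 1973 at CT22, 1521 at CT26, 1468 at CT30, 1448 at CT34 and 1317 at CT38 on the first day. On the second day it measured 1192 at CT42, 1851 at CT46, 2072 at CT50, 1802 at CT54, 1304 at CT58 and 1149 at CT62. On the first day the invariant chain was thus highest at CT22, near its median of 1458 at CT34 and lower at CT38. On the second day it stayed up longer, from CT46 to CT54 with its highest pool at CT50, and was low at CT58 and CT62. The whole range was 1.80-fold. At matching times the pools 24 h apart gave means of 1237 ± 62.7 at circadian time 18, 1912 ± 86.5 at 22, 1797 ± 390 at 2, 1635 ± 236 at 6, 1376 ± 102 at 10 and 1233 ± 119 at 14 (SD, n = 2 pools each). At times 18 and 14 both pools lay below both pools at times 22, 2 and 6. Cd74 was chosen with its 24-h pattern known, so this separation is a description and supports nothing.

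H2-Aa, the I-A alpha chain, measured 805, 1052, 813, 740, 714 and 739 from CT18 to CT38. From CT42 to CT62 it measured 503, 807, 1153, 1131, 606 and 693. Its highest pools were CT50, CT54 and CT22, and CT42 was its lowest, so that its second day opened at a level well below any pool of the first. The whole range was 2.29-fold, against 1.47-fold within the first day. Means at matching times were 654 ± 214 at circadian time 18, 929 ± 173 at 22, 983 ± 240 at 2, 935 ± 276 at 6, 660 ± 76.7 at 10 and 716 ± 32.3 at 14 (SD, n = 2 pools each), so that the spread at the first 4 of these times was as large as most steps between them.

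H2-Ab1, the I-A beta chain and the partner of H2-Aa, measured 163, 245, 195, 168, 173 and 195 over the first day. Over the second it measured 98.3, 121, 352, 304, 193 and 194. It had the widest range of the 4 genes, 3.58-fold, and all of it fell on the second day, where CT42 and CT46 were its lowest pools and CT50 and CT54 its highest. At circadian time 22 the pools disagreed most: 245 on the first day, the highest of that day, and 121 on the second, a difference of -1.02 on the log2 scale.

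H2-Eb1, the I-E beta chain, measured 567, 719, 521, 420, 445 and 527 over the first day. Over the second it measured 486, 628, 660, 685, 429 and 479. It had the narrowest range, 1.71-fold, and unlike the other 3 genes it was highest at CT22 and lowest at CT30. At circadian time 6 its pools were 420 and 685, which spanned most of its whole range. The duplicate CT18 arrays differed by 0.14 for Cd74, 0.23 for H2-Aa, -0.02 for H2-Ab1 and 0.25 for H2-Eb1 on the log2 scale.

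**Figure D1:**
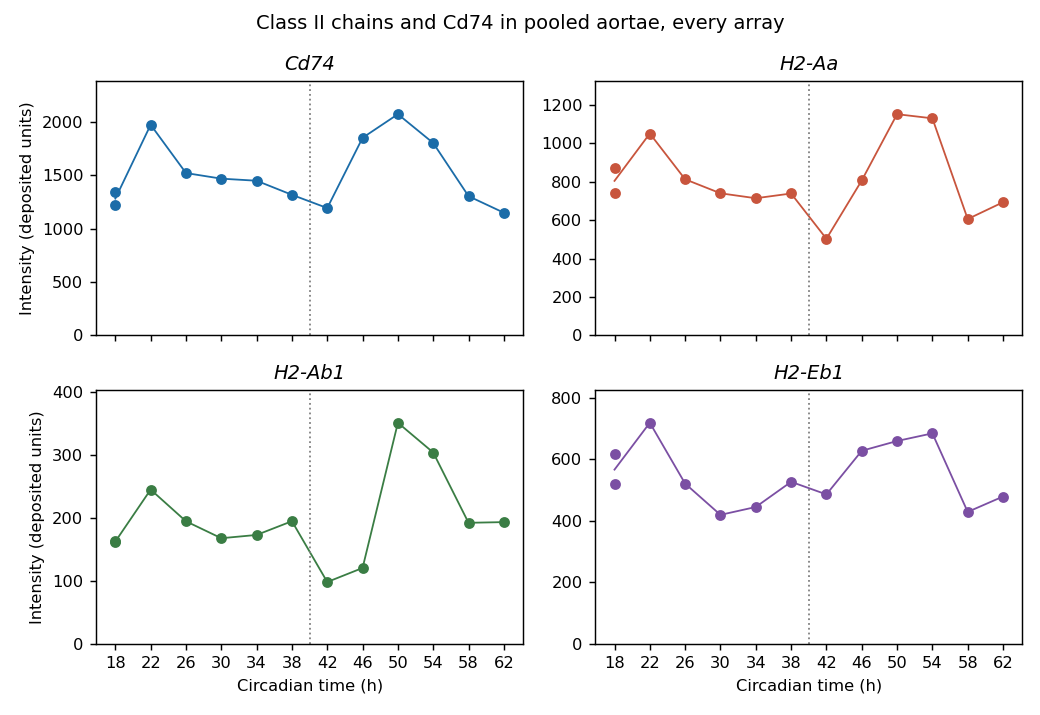
Intensity of Cd74, H2-Aa, H2-Ab1 and H2-Eb1 (deposited units, linear axes from 0) against circadian time in hours; points are the 13 arrays, lines join the 12 pools and the dotted line divides the days. All 4 genes have a high pool at CT22 and again at CT50, and H2-Ab1 runs from 98.3 at CT42 to 352 at CT50.

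Ranked within each gene, CT22 and CT50 were among the 3 highest pools for 4 of 4 genes, CT54 for 3 and CT46 for 1. CT42 was among the 3 lowest for 3 of 4 genes, the exception being H2-Eb1. The mean centred log2 profile of the 4 genes was 0.40 at CT22, 0.55 at CT50 and 0.45 at CT54, and -0.52 at CT42. It lay between -0.22 and 0.01 at the other 8 time points.

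The spread of the genes over the pools was ordinary for this array set. The SD over the 12 pools was 0.29 for Cd74, 0.35 for H2-Aa, 0.51 for H2-Ab1 and 0.27 for H2-Eb1 on the log2 scale, against a median of 0.33 over the 7453 probe sets kept. Of those, 42%, 54.7%, 74.7% and 38% had a smaller SD. Between pools 24 h apart the SD was 0.18, 0.33, 0.51 and 0.25 in the same order, with a median of 0.30 over all probe sets. Only for Cd74 was the spread between days well under the spread over the whole series.

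A cosine of 24 h was fitted to the log2 values of the 12 pools with limma, a linear model that borrows variance across probe sets. Its amplitude is the distance from mean to peak, and its SE comes from the scatter of pools around the curve. The amplitude was 0.32 ± 0.07 for Cd74 with a peak at circadian time 1.7, and 0.31 ± 0.11 for H2-Aa with a peak at 2.1. For H2-Ab1 it was 0.38 ± 0.17 with a peak at 5.0, and for H2-Eb1 0.25 ± 0.09 with a peak at 23.1. The cosine took up 67.5% of the variance of Cd74, 42.6% of that of H2-Aa, 30.5% of that of H2-Ab1 and 46.8% of that of H2-Eb1. The median amplitude over all probe sets was 0.18, and 77.9%, 76.5%, 83.9% and 66.5% of them had a smaller amplitude than Cd74, H2-Aa, H2-Ab1 and H2-Eb1.

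At an adjusted p below 0.05 in limma, 0 of the 4 genes passed for the 24-h term, where 0.349% of all probe sets did. At an unadjusted p below 0.05 Cd74, H2-Aa and H2-Eb1 passed and H2-Ab1 did not, against 9.96% of all probe sets. Since these genes were chosen from this contrast, nothing is read from either count. The peaks could not move with the floor, filter or variance trend, since the 4 genes lay above every floor and passed every filter. They could move only with the scaling, with 1 CT18 array or with a pool left out. Over all 21 alternatives, the unmoved ones included, the peaks lay between circadian times 1.25 and 2.25 for Cd74 and 0.82 and 2.82 for H2-Aa. They lay between 3.73 and 6.27 for H2-Ab1 and between 21.9 and 0.18 for H2-Eb1.

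The second day was compared with the first to see whether levels drifted in darkness. The mean intensities of the first and second day were 1486 and 1520 for Cd74, 803 and 778 for H2-Aa, 188 and 190 for H2-Ab1, and 525 and 552 for H2-Eb1. With the 24-h terms in the model the second day minus the first was 0.03 ± 0.10 for Cd74 (adjusted p = 0.950) and -0.05 ± 0.16 for H2-Aa (0.956) on the log2 scale. It was 0.02 ± 0.26 for H2-Ab1 (0.991) and 0.07 ± 0.12 for H2-Eb1 (0.893). Passing genes numbered 0 of 4 in limma, adjusted or at an unadjusted p below 0.05, where 0% and 7.54% of all probe sets passed. The signs of these differences were not stable: leaving out single pools turned the sign for each of the 4 genes.

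The fitted shape of the day was also compared between the days. On the first day the amplitude fitted to 6 pools was 0.19 for Cd74, 0.23 for H2-Aa and 0.16 for H2-Ab1, and on the second 0.47, 0.55 and 0.80. For H2-Eb1 it was 0.33 on both days, but the peak lay at circadian time 20.4 on the first day and 1.8 on the second. Peaks of the other genes were also later on the second day: 0.52 and then 2.21 for Cd74, 22.1 and then 3.55 for H2-Aa, 22.3 and then 5.74 for H2-Ab1.

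In the test of a difference in rhythm between the days, limma gave adjusted p-values of 0.748 for Cd74, 0.681 for H2-Aa, 0.689 for H2-Ab1 and 0.689 for H2-Eb1. Genes past the threshold numbered 0 of 4, and 0% of all probe sets passed. At an unadjusted p below 0.05 H2-Aa, H2-Ab1 and H2-Eb1 passed, against 6.98% of all probe sets. The 3 genes rest on the same pools and are not separate evidence. Over the 21 alternatives an unadjusted p below 0.05 was found in 3 for Cd74, 16 for H2-Aa, 12 for H2-Ab1 and 13 for H2-Eb1, and the lowest adjusted p for any of them was 0.551. With 6 residual degrees of freedom no difference between the days was shown for any of the 4 genes.

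**Figure D2:**
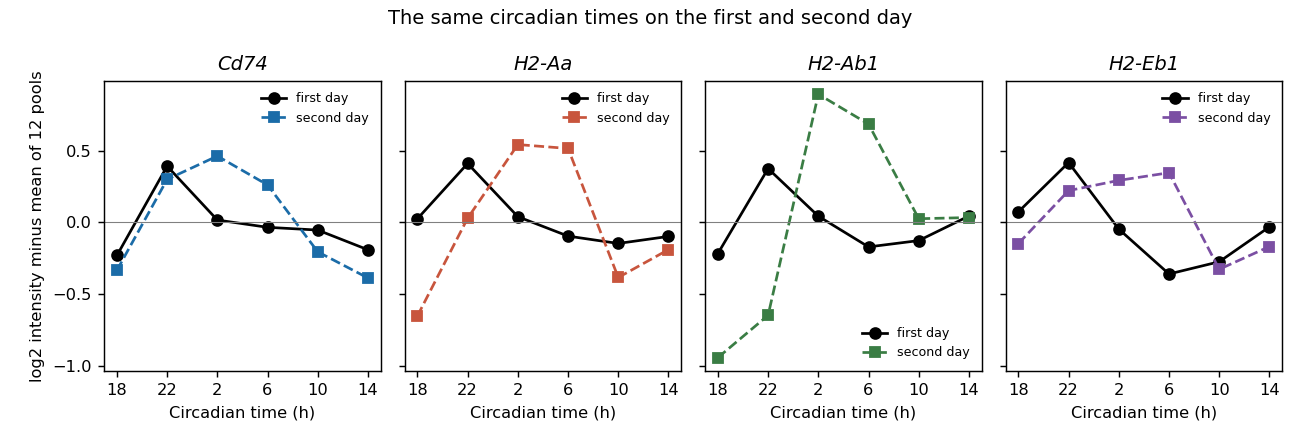
The log2 intensity of each gene minus its mean of 12 pools, against circadian time in hours, with the first day as black circles and solid lines and the second as coloured squares and dashed lines; each point is 1 pool. The first day peaks at time 22 in all 4 panels, and at times 2 and 6 the second day lies above the first in each panel.

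At circadian times 2 and 6 each gene was higher on the second day, by 0.45 and 0.30 for Cd74, 0.50 and 0.61 for H2-Aa, 0.85 and 0.86 for H2-Ab1, and 0.34 and 0.71 for H2-Eb1 on the log2 scale. At times 18 and 22 each was lower, by as little as -0.09 for Cd74 at 22 and as much as -1.02 for H2-Ab1 at the same time. These pairs are single pools and were not tested one by one.

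Over the 12 pools the log2 levels of the 4 genes were related to one another, which is a description of these pools, since all genes share the same RNA. Pearson's r was 0.84 between Cd74 and H2-Aa (Spearman's rho 0.86) and 0.81 between H2-Aa and its partner H2-Ab1 (rho 0.63). It was 0.81 between H2-Aa and H2-Eb1 (rho 0.77), 0.76 between Cd74 and H2-Eb1 (rho 0.62), 0.56 between Cd74 and H2-Ab1 (rho 0.52) and 0.48 between H2-Ab1 and H2-Eb1 (rho 0.50). Without the 2 pools farthest from the median of the first gene of each pair, the lowest value was 0.25, between Cd74 and H2-Ab1, and the highest 0.88, between H2-Aa and H2-Eb1. H2-Ab1 had the lowest r to Cd74 and to H2-Eb1, but not to H2-Aa. Within single days the r of H2-Ab1 to Cd74 was 0.83 on the first and 0.53 on the second. Leaving out the 2 far pools also narrows the range of Cd74, so the lower r does not show that the relation rested on them.

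The other genes of class II assembly were at or near the floor or followed other courses. H2-Ea, which would supply the alpha chain of I-E, gave raw intensities of -5.27 to 28.4 and was below the floor on all 13 arrays. Mice of the b haplotype, to which C57BL/6 belongs, are known to lack a working H2-Ea gene and with it surface I-E, so that H2-Eb1 RNA in this strain is not a measure of I-E protein at the surface. H2-Eb2 and H2-DMb2 were at the floor in 12 of 12 pools and H2-DMa, the alpha chain of the H2-DM editor that exchanges Cd74 fragments for peptide, in 10 of 12. H2-DMb1, its beta chain, ran from 48.7 at CT38 to 218 at CT22 (r = 0.40 to the mean profile of the 4 genes). H2-Oa and H2-Ob form H2-O, a brake on H2-DM found mainly in B cells. H2-Oa ran from 149 at CT62 to 564 at CT34 and had an r of -0.37, and H2-Ob ran from the floor to 103 with an r of 0.44. In all, 11 of the 12 genes of this list were on the array and 7 were kept, and of the 3 kept besides the 4 genes described, 0 passed for the 24-h, day or interaction term in limma, adjusted or at an unadjusted p below 0.05.

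Genes of endosomal processing, which prepare the peptides and cut Cd74, had an r of 0.57 to the mean profile as a list, with and without the 2 pools farthest from the median. Of 12 on the array 12 were kept and 0 passed any of the 3 limma tests, adjusted or at an unadjusted p below 0.05. The median amplitude of the list was 0.11, against 0.18 over all probe sets. Cst3, a cathepsin inhibitor, ran from 5400 to 7331 (r = 0.23 to the mean profile), the proteases Ctsb from 3368 to 4803 (r = 0.23) and Ctsd from 3252 to 4255 (r = 0.10). Lamp1, a membrane protein of lysosomes, ran from 2338 to 2817 (r = -0.0037). Ctss, the main protease of Cd74 in B cells and dendritic cells, ran from 334 at CT58 to 741 at CT46 (r = 0.54). Ifi30, the thiol reductase of the same compartment, had an r of 0.74 but was at the floor in 4 pools. Ctss and Ifi30 were singled out after their values had been seen.

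Regulators of class II transcription had r between -0.33 and 0.41 to the mean profile of the 4 genes. Ciita was dim, between 36.8 at CT50 and 115 at CT30, and its r to the mean profile was -0.24. Its value at CT50, the highest pool of Cd74, H2-Aa and H2-Ab1, lay just above the floor. Irf1, a transcription factor induced by interferon gamma, ran from 291 to 430 (r = 0.30), the receptor kinase Jak1 from 167 to 335 (r = 0.41), Nfyc, a subunit of the Y box factor, from 465 to 616 (r = -0.28) and Rfxank, a subunit of the X box factor, from 114 to 446 (r = 0.13). Ifng itself was at the floor in 12 of 12 pools. Of 15 genes of this list on the array 12 were kept and 0 passed any adjusted limma test. At an unadjusted p below 0.05, 1 passed for the 24-h term, 1 for the day and 0 for the interaction, where 9.96%, 7.54% and 6.98% of all probe sets did.

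The class I pathway, which presents peptides from the cytosol in nearly all cells, had a list mean with an r of 0.63 to the mean profile, and of 0.44 without the 2 pools farthest from the median. B2m, the shared light chain, ran from 4434 at CT30 to 5363 at CT26 (r = 0.60 to the mean profile of the class II genes and Cd74). The heavy chains H2-K1 and H2-D1 had r of 0.65 and 0.75, with the limit that their probe sets may also bind near-identical class I genes. Pdia3, a chaperone of the loading complex, had an r of -0.15. The 24-h amplitude was 0.11 for B2m, 0.12 for H2-K1, 0.15 for H2-D1 and 0.17 for Pdia3, which was also the median of the list. Calr, a chaperone, had the largest at 0.52, and the peptide transporter genes Tap2 and Tap1 had 0.45 and 0.32. Of 13 genes on the array 13 were kept and 0 passed any adjusted limma test. At an unadjusted p below 0.05, 2 passed for the 24-h term, 1 for the day and 5 for the interaction, where 9.96%, 7.54% and 6.98% of all probe sets did. The 5 genes share their pools and are not separate evidence.

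**Figure D3:**
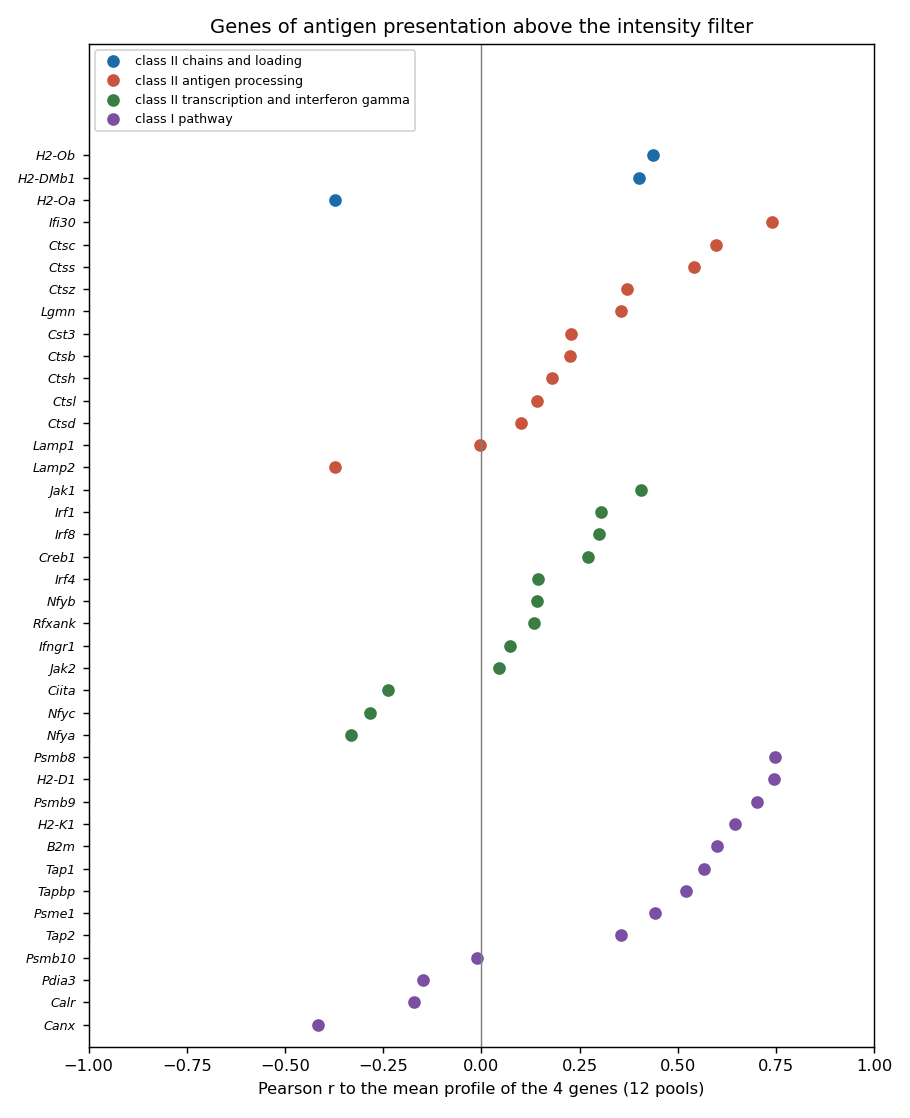
Pearson r over 12 pools between each gene of 4 antigen presentation lists kept by the filter (rows) and the mean centred log2 profile of Cd74, H2-Aa, H2-Ab1 and H2-Eb1, which are themselves left out; colours mark the lists. Class I genes reach 0.75, and Ciita lies at -0.24.

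Ligands and partners at the cell surface gave little signal. Of 7 costimulatory genes and partners of Cd74 on the array 4 were kept and 0 passed any limma test, adjusted or at an unadjusted p below 0.05. Mif, the cytokine that binds Cd74, and Cd44, its signalling partner, were at the floor in 12 of 12 pools. Cd80 and Cd86, which deliver the costimulus to T cells, had r of -0.26 and -0.42 to the mean profile, and the chemokine receptors Cxcr4 and Cxcr2 had r of 0.20 and -0.13. Cxcr4 was at the floor in 4 pools, Cd86 in 3 and Cxcr2 in 1.

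The genes with the most similar course were taken from the whole array by their r to the mean profile over 12 pools. Myh9, a non-muscle myosin, had the highest (r = 0.89), with 401 to 621 and its highest pool at CT50. It was followed by Ubtf (0.88, with 6 pools at the floor), Tmsb10, a thymosin that binds actin (0.86), Rgs19 (0.81), 9530068E07Rik (0.80), Gimap4, a lymphocyte GTPase (0.79), Erp29 (0.79), Ly6e, an interferon-inducible surface protein (0.79), Mapre3 (0.78, with 5 pools at the floor) and Sema4d, a semaphorin of lymphocytes (0.78). All 10 were highest at CT50 or CT54. Of 6666 probe sets compared, 0.555% had an r above 0.7, and the median r was -0.00163.

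Because whole tissue was pooled, fewer cells of a type and less RNA per cell cannot be told apart. Markers of the cell types that could carry class II RNA were therefore set beside the 4 genes, each list as the mean centred log2 profile of its kept genes. B cell markers had an r of 0.62 to the mean profile (rho 0.71), and of 0.47 without the 2 pools farthest from the median. Of 15 on the array 10 were kept, and their summed intensity ran from 2415 at CT58 to 4160 at CT22. Ighm, the heavy chain of IgM, had an r of 0.62, Ebf1 of 0.56, Pax5 of 0.51, Cd79a of 0.61 and Cd79b of 0.45. Dimmer probe sets annotated to Ighm had r from -0.21 to 0.73, and several of them were at the floor in most or all pools. Ms4a1, which encodes CD20, had an r of -0.21, but a dimmer probe set of Ms4a1 had an r of 0.37. The other kept genes had r of 0.74 (Cd37), 0.44 (Btk), 0.12 (Fcer2a) and -0.40 (Cd83). Cd22 and Cr2 were at the floor in 12 of 12 pools, and Cd79a and Fcer2a in 4 each. CT50 and CT22 were the highest pools of the mean centred B cell list and of Cd74, and both were among the 3 highest of each of the 4 genes. By summed intensity CT18, at 3763, stood above CT50, at 3642. At CT18 and CT26 the B cell list stood at 0.35 and 0.26 where the 4 genes stood at -0.09 and 0.01. At CT54 the B cell list stood at -0.14 where the 4 genes stood at 0.45. The part of B cells in the class II values was not tested.

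Thymocyte and T cell markers swung far more, with a summed intensity from 1879 at CT42 to 7093 at CT54 over the 12 kept of 15, and Rag1, the recombinase of immature lymphocytes, from the floor at CT26 and CT42 to 1460 at CT54. Their r to the mean profile was 0.35 (rho 0.21), and 0.05 without the 2 far pools. The brightest genes of the list had r of -0.10 (Cd1d1), 0.28 (Rag1), 0.31 (Dntt) and 0.35 (Thy1). Another probe set of Rag1 did not follow this course: it ran from 224 at CT30 to 488 at CT34, with an r of -0.16. CT42 was thus the lowest pool both for these markers and for H2-Aa and H2-Ab1, and CT54 was high for both. At CT26, the pool next lowest in thymocyte markers with a sum of 1887, the 4 genes stood at 0.01. At CT38 and CT18 the thymocyte list was high, at 0.78 and 0.68, where the 4 genes stood at -0.07 and -0.09. At CT50, the highest pool of the mean profile at 0.55, the thymocyte list stood at -0.29. Thymic epithelium markers, 4 kept of 6 with Krt5 and Krt14 at the floor in 12 of 12 pools, had an r of 0.01 and summed to 326 at CT26 and 764 at CT42. Within it Krt8 had an r of -0.23, Aire of -0.14, Ccl25 of 0.03 and Foxn1 of 0.26. Ccl25 was at the floor in 6 pools and Foxn1 in 5.

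Macrophage markers, 16 kept of 18, had an r of 0.21 and a sum between 4255 at CT58 and 5699 at CT22. Its brightest genes were Lyz2 (r = 0.34), the complement genes C1qc (0.47) and C1qa (0.59), and Fcgr1 (-0.0044). Dendritic cell markers, 7 kept of 10, had an r of 0.27 and a sum between 1733 at CT58 and 2962 at CT50. Itgax, which encodes CD11c, was at the floor in 3 pools, and Ccl17 in 12 of 12. The brightest dendritic cell genes had r of -0.01 (Cd24a), 0.34 (Fscn1), 0.07 (Ccl22) and 0.10 (Batf3). Plasma cell markers, 3 kept of 5, had an r of 0.26, with sums of 617 at CT58 to 997 at CT46. Their r was -0.36 for Xbp1, 0.30 for Jchain and 0.32 for Sdc1, which was at the floor in 8 pools. In each of these lists 0 genes passed any adjusted limma test. At an unadjusted p below 0.05 in the 24-h test there were 1 of 16 macrophage, 0 of 7 dendritic cell, 2 of 10 B cell, 0 of 12 thymocyte, 1 of 4 thymic epithelium and 0 of 3 plasma cell genes, against 9.96% of all probe sets. In the day test 2 of 10 B cell and 1 of 12 thymocyte genes passed, all lower on the second day, against 7.54%. In the interaction test 1 of 16 macrophage, 2 of 7 dendritic cell, 1 of 10 B cell and 1 of 3 plasma cell genes passed, against 6.98%. The lists not named in these 2 tests had 0.

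Markers of heart muscle ran against the 4 genes. The atrial list, 5 kept of 6, had an r of -0.66 (rho -0.71, and -0.69 without the 2 far pools), and its sum ran from 6512 at CT30 to 13296 at CT42, the trough of H2-Aa and H2-Ab1. Nppa, the atrial natriuretic peptide, had an r of -0.69 to the mean profile, Myl7 and Myl4, atrial myosin light chains, of -0.42 each, and Actc1, cardiac actin, of -0.27. Adipocyte markers, 6 kept of 6, had an r of -0.53, with sums of 35197 at CT18 to 45112 at CT58. The brightest genes of the list had r of -0.21 (Adipoq), -0.04 (Cidea), 0.31 (Ucp1) and 0.35 (Fabp4). Lpl had an r of -0.11. Lep had an r of -0.60 and the largest SD of the list, 0.71, so it weighed most in the list profile. The sums did not follow that profile: at CT54 it was lowest, at -0.19, while the sum was 41817. Skeletal muscle markers had an r of -0.24 (sums 5523 to 27687), smooth muscle markers of 0.03 (9968 to 15613) and endothelial markers of 0.16 (1457 to 2781). The brightest skeletal muscle genes, Acta1, Tnnt3, Tnnc2 and Atp2a1, had r of -0.39 to -0.21. Of the endothelial genes Cdh5 had an r of 0.45, Vwf of -0.12, Tie1 of -0.12 and Kdr of -0.17. Acta2, Tagln, Myh11 and Mylk, which mark the smooth muscle of the aortic wall, were above the floor in 12 of 12 pools, with r of 0.30, -0.02, 0.29 and -0.29. In these lists 0 genes passed any adjusted limma test. At an unadjusted p below 0.05 for the 24-h term there were 3 of 5 atrial, 2 of 6 adipocyte, 1 of 6 smooth muscle, 1 of 7 endothelial and 0 of 10 skeletal muscle genes, against 9.96% of all probe sets. For the day there were 1 of 6 adipocyte and 1 of 6 smooth muscle genes, against 7.54%. For the interaction there was 1 of 6 smooth muscle genes, against 6.98%, and the lists not named had 0. The part of atrial tissue in the class II values was not tested.

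**Figure D4:**
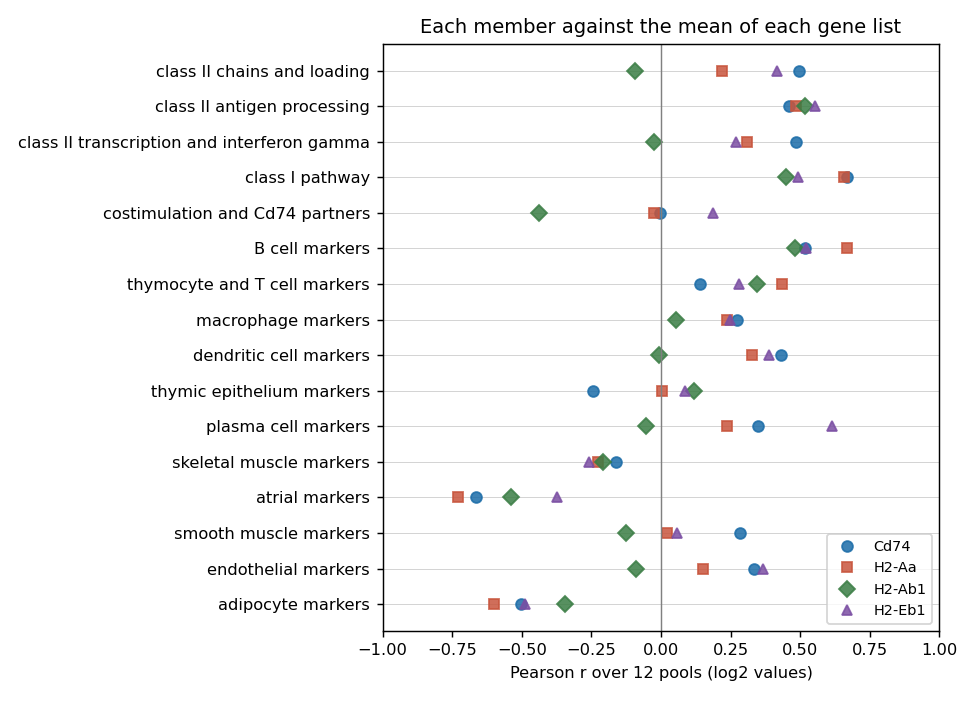
Pearson r over 12 pools between the log2 level of each of the 4 genes (symbols) and the mean centred log2 profile of each gene list (rows), with the 4 genes left out of the class II list. B cell and class I lists lie to the right for all 4 genes and the atrial and adipocyte lists to the left.

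**Figure D5:**
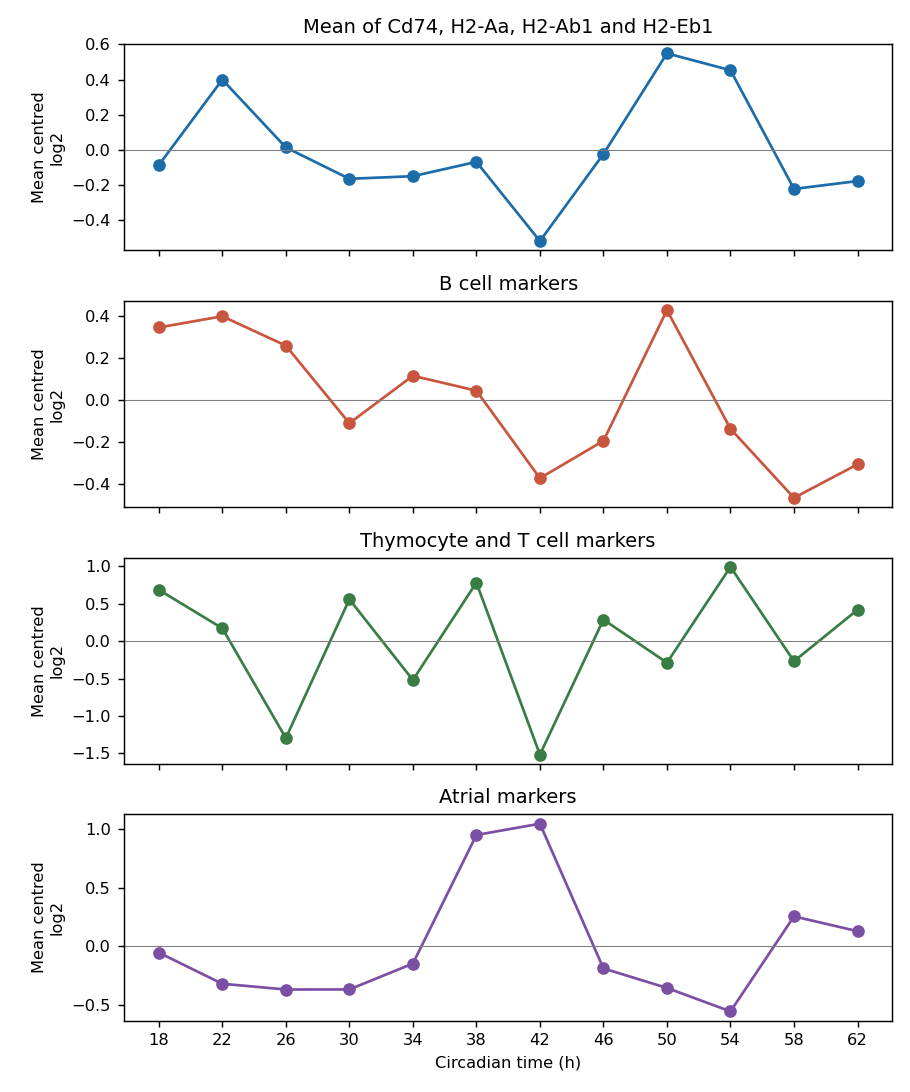
Mean centred log2 profile, with an axis of its own for each panel, of the 4 genes and of the B cell, thymocyte and T cell, and atrial marker lists, against circadian time in hours; each point is 1 pool. At CT42 the 4 genes stand at -0.52, the thymocyte list is at its lowest and the atrial list at its highest, and at CT50 the 4 genes and the B cell list are both at their highest.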

How the data were processed

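Aortic RNA of 12 pools was read on 13 one-colour Affymetrix arrays. The values are the intensity per probe set as deposited by the authors, on a linear scale; neither software nor scaling is given in the sources used here. The trimmed mean was 200.2 on every array, so values were taken as already scaled. Between 21.3% and 24.2% of an array's intensities were at or below 0. Of 12488 probe sets 66 controls were left out, and a platform annotation table gave 10833 of the rest 1 gene, 396 several and 1193 none. The log2 values of the CT18 arrays were averaged, and 7453 probe sets (5655 genes) were kept. A 24-h cosine and sine, a term for the day and their interaction were fitted to all 12 pools with limma 3.58.1 in R 4.3.3 (eBayes with an intensity trend; 9, 8 and 6 residual degrees of freedom), with Benjamini-Hochberg adjustment over all 7453. There were no replicate pools, and p-values rest on the scatter of pools around the curve. The fit was also tested on simulated data.

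The 4 genes and all gene lists were chosen with earlier results of these data known. Named were the 4 genes, every measured gene of the class II list, for other lists the genes past a test or else up to 4 by highest mean intensity, and the 10 genes most alike by r. Further markers and regulators (such as Calr, Tap1, Tap2, Ctss, Ifi30, Ciita, Ifng, Mif, Cd79a, Cd79b, Cd37, Btk, Fcer2a, Cd83, Lep, Lpl, Itgax and genes at the floor) were named after their values were seen. Among several probe sets of a gene, that of highest mean stood for it. Alternatives changed the floor, filter, scaling and variance trend, used 1 CT18 array, or left out each pool.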

Additional observations from a re-analysis of the deposited data

How the results depend on the processing

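Over 21 alternatives the amplitude was 0.29 to 0.39 for Cd74, 0.26 to 0.37 for H2-Aa, 0.26 to 0.49 for H2-Ab1 and 0.20 to 0.29 for H2-Eb1. As with the peaks, the floor, filter and variance trend could not change these amplitudes. The count of probe sets with a 24-h rhythm, 26, became 4 without a filter, 5 with arrays centred on their medians and 4 without the variance trend. With single pools left out it ran from 8 (without CT54) to 40 (without CT30). It was also more than 1.5 times lower without CT18, CT34, CT42, CT46, CT58 or CT62. The cause was not tested. The day test called 0 to 2 probe sets with single pools left out, 2 of them without CT42. The interaction called 0 under every alternative. The second day minus the first changed sign with quantile normalization for Cd74 (-0.00369) and with arrays centred on their medians for H2-Aa (0.0337). With single pools left out it ran from -0.0392 to 0.0901 for Cd74, -0.139 to 0.0701 for H2-Aa, -0.14 to 0.16 for H2-Ab1 and -0.0183 to 0.133 for H2-Eb1. Dim genes such as H2-DMa and Ciita lie close to the floor, so their courses are uncertain.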

Other observations

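Irf4, a transcription factor of lymphocytes and dendritic cells, had the largest amplitude of the class II regulators, 1.40 on the log2 scale, with a peak at circadian time 6.7. It ran from 54.8 at CT18 to 675 at CT58 and missed the threshold in limma (adjusted p = 0.0950). A CT18 array gave a raw intensity of 20.2 for Irf4, below the floor, so the low end of this range is uncertain. The r of Irf4 to the mean profile of Cd74 and the class II chains was 0.14 over 12 pools. Irf4 was singled out after its values had been seen.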
